A study of Mus musculus with 12 samples.

Results

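Matrix metalloproteinases, ADAMTS proteases, ADAMTS-like proteins and tissue inhibitors of metalloproteinases were examined in whole fetal testes of control mice and of mice with a conditional deletion of *Nr2f2*, a nuclear receptor gene expressed in the testis interstitium. Members were all genes of the count table whose symbol is Mmp, Adamts, Adamtsl or Timp followed by a number. This rule found 51 of 24470 genes, of which 23 were MMPs, 19 ADAMTS, 5 ADAMTS-like and 4 TIMPs. Control embryos were Nr2f2 f/f and conditional knockout (cKO) embryos were Wt1 CreER x Nr2f2 f/f, so that the floxed allele was common to both groups and only the cKO carried the Cre. The Cre is driven from the *Wt1* locus, whose activity in the fetal gonad is not limited to interstitial cells, and the dams received tamoxifen at E11.5 and E12.5. Testes were collected at E14.5, and each of the 6 control and 6 cKO libraries held polyadenylated RNA of 3 pooled testes.

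Total counts ranged from 7044531 to 59404778 per library, and edgeR estimated a biological coefficient of variation of 0.170 within a genotype. The targeted gene *Nr2f2* had between 163 and 186 CPM (counts scaled to library size) in the control pools and between 50.2 and 119 CPM in the cKO pools, so its RNA was lowered and not absent. *Xist*, the long RNA of X inactivation, exceeded 100 CPM in 4 libraries (replicate 1 of the controls and replicates 3, 5 and 6 of the cKO), so 1 of 6 control and 3 of 6 cKO pools may hold XX cells, and the part of this in the results was not tested. Values from a fit on the other 8 libraries are given beside every member whose call or sign differed there and beside some others. Sertoli markers (*Sox9*, *Amh*) and germ cell markers (*Ddx4*, *Dazl*) were present in both groups at means of at least 61.2 CPM. None of 6 Sertoli, 6 germ cell and 8 neutrophil and mast cell markers passed the threshold, and of 6 endothelial markers only *Tek* was lower.

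MMPs are zinc-dependent endopeptidases that cleave collagens, gelatin and other proteins of the extracellular matrix. Most are secreted as inactive proenzymes, and the membrane-type MMPs are held at the cell surface. ADAMTS proteases carry a related zinc-dependent domain together with thrombospondin repeats, and their substrates include the large proteoglycans versican and aggrecan and the procollagens. ADAMTS-like proteins share the thrombospondin repeats but have no protease domain, and TIMPs are secreted proteins that bind and block the active sites. In the fetal testis these proteins act in a matrix made by interstitial, peritubular and Sertoli cells, which includes the basement membrane around the forming cords.

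Of the 51 members, 38 passed the filter on low counts and were tested by edgeR's quasi-likelihood test over all 15572 genes that passed. The other 13 were *Adamts13*, *Mmp1a*, *Mmp1b*, *Mmp3*, *Mmp7*, *Mmp8*, *Mmp10*, *Mmp12*, *Mmp13*, *Mmp20*, *Mmp21*, *Mmp24* and *Mmp27*. One gelatinase, *Mmp2*, was lower in cKO testes, and *Adamts9* and *Adamtsl3* were higher. Among all genes tested 4.85% were lower and 3.28% were higher at an adjusted p under 0.05, so that 1 lower and 2 higher of 38 members is near the background. DESeq2 called 5 lower and 3 higher of 40 members with an adjusted p, against 6.27% and 5.28% of all genes. The groups did not overlap in 2 members (*Mmp2* and *Adamts9*), against 5.52% of all genes. Log2 fold changes (cKO relative to control) had a median of -0.08 over the 38 members and of 0.0030 over all genes, and 21 members had negative and 17 positive values. An unadjusted p under 0.05 was reached by 12 members (31.6%) and by 25.2% of all genes.

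**Figure D1:**
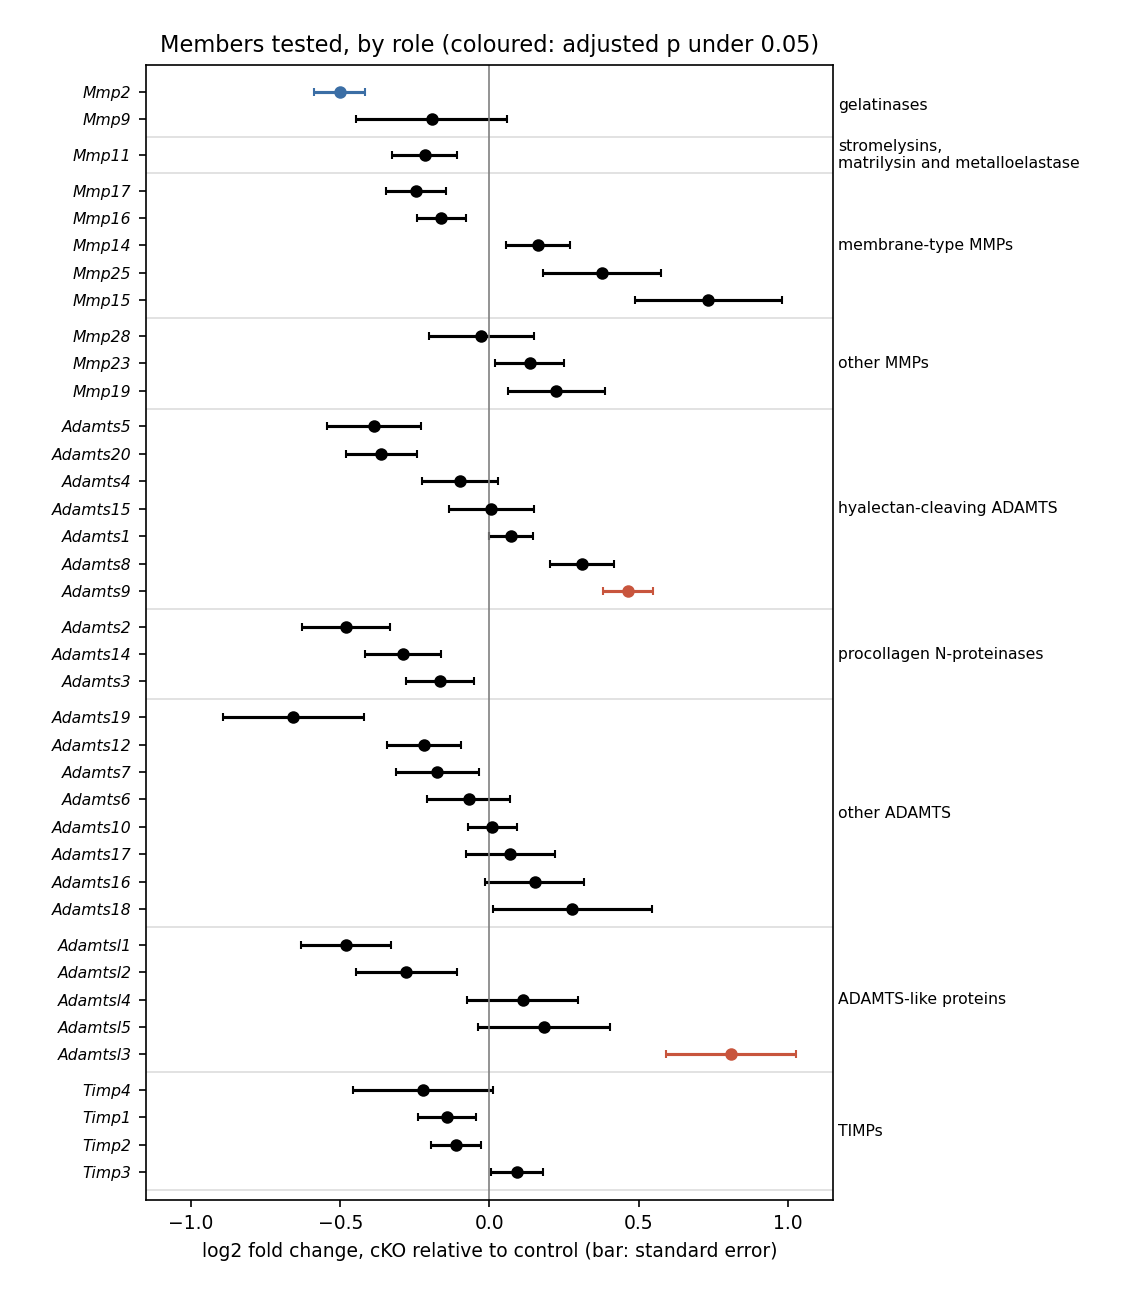
Log2 fold change of each member tested, in cKO relative to control testes, with its SE from edgeR; members are grouped by role and the coloured points have an adjusted p under 0.05. Mmp2 lies at -0.50, Adamts9 at 0.46 and Adamtsl3 at 0.81, while the 4 TIMPs lie between -0.22 and 0.09.

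*Mmp2* encodes gelatinase A, which degrades denatured and basement membrane collagens (Entrez Gene 17390, mm10 chr8:92827297-92853421, plus strand). Its level in control pools was 358 CPM at the lowest, 414 CPM at the median and 425 CPM at the highest. In cKO pools the lowest, median and highest were 230.3, 291 and 337 CPM. The highest cKO pool lay under the lowest control pool, and control replicate 1 was the lowest control. Means were 406 ± 25.1 CPM and 287 ± 36.7 CPM (SD, n = 6 pools each), which is a log2 fold change of -0.50 (SE, its standard error, 0.08, adjusted p = 0.00229 by edgeR), or 29.4% lower. The gene passed the threshold in all 18 alternative fits, in which the log2 fold change lay between -0.55 and -0.40. Its smallest value, -0.40 (adjusted p = 0.00892 by edgeR), came without the 4 libraries with high *Xist*. *Mmp2* was lowest within each genotype in those libraries. It had 358 CPM in control replicate 1 and 286, 230.3 and 264 CPM in cKO replicates 3, 5 and 6. The part of this in the change was not tested. In a whole organ, fewer cells of a type and less RNA per cell cannot be told apart.

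Markers of interstitial and contractile cells moved with *Mmp2*. Of 6 interstitial markers, *Tcf21*, *Nr2f2* and *Wnt5a* were lower in cKO testes and none was higher. Their summed level was 1189 to 1513 CPM in control and 689 to 1249 CPM in cKO pools. All 5 contractile markers (*Acta2*, *Myh11*, *Tagln*, *Cnn1*, *Lmod1*) were lower, with sums of 323 to 439 CPM in control and 178 to 278 CPM in cKO pools. Fetal Leydig markers were lower in 4 of 5 cases, with sums of 1561 to 2910 CPM and 841 to 1745 CPM. No marker of these lists was at a mean of 0 in either group, and the part of these cells in the change of *Mmp2* was not tested.

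The partners of gelatinase A gave different values. *Mmp14*, the membrane-type MMP that activates proMMP2 at the cell surface, had 188, 243 and 309 CPM at the lowest, median and highest control pool and 232, 288 and 307 CPM in the cKO. The groups overlapped throughout, with a log2 fold change of 0.16 (SE 0.11, adjusted p = 0.355 by edgeR), or 0.34 (adjusted p = 0.0636) without the 4 libraries with high *Xist*. *Timp2*, which inhibits MMPs and also bridges proMMP2 to MMP14, ranged from 142 to 172 CPM with a median of 157 CPM in control pools. In cKO pools it ranged from 118 to 160.4 CPM with a median of 152 CPM, and its log2 fold change was -0.11 (SE 0.08, adjusted p = 0.415 by edgeR), or 0.0085 without the 4 libraries with high *Xist*. The *Timp2* interval contains *Cep295nl* on the same strand, so reads of the latter cannot be told apart by strand. The ratio of *Mmp2* to *Mmp14* CPM, which is not per length and serves only to compare the groups, was 1.70 ± 0.35 in control and 1.04 ± 0.06 in cKO pools (SD, n = 6 pools each). Its lowest control value was 1.16 (replicate 1) and its highest cKO value was 1.10. This ratio was chosen after the values were seen and has no test of its own.

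**Figure D2:**
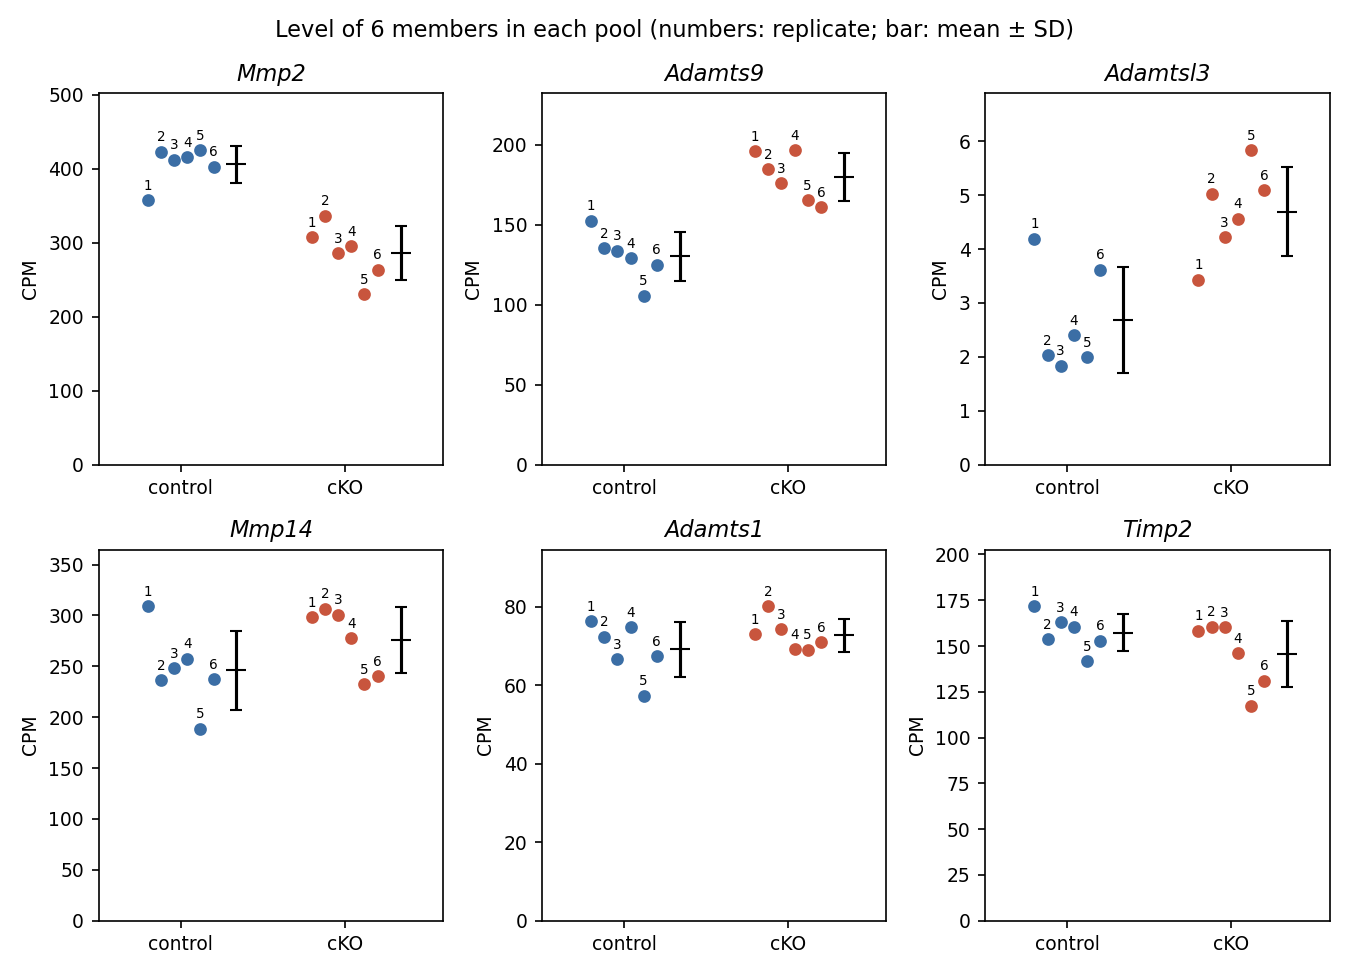
CPM of 6 members in each pool, with the replicate number beside each point and the mean ± SD (n = 6 pools) as a bar; each panel starts at 0. Mmp2 and Adamts9 separate the groups completely, control replicate 1 at 4.19 CPM lies among the cKO pools for Adamtsl3, and Mmp14, Adamts1 and Timp2 overlap.

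*Mmp9*, the other gelatinase, was low, with means of 2.09 ± 0.71 CPM in control and 1.86 ± 0.56 CPM (SD, n = 6 pools each) in cKO pools (log2 fold change -0.19, adjusted p = 0.656 by edgeR). Among the membrane-type MMPs, *Mmp15* had the largest difference. It had 22.3, 51.7 and 95.2 CPM at the lowest, median and highest control pool and 67.8, 91.0 and 116 CPM in the cKO. Control replicate 1 was the only control pool that reached the cKO range. The log2 fold change was 0.73 (SE 0.25, adjusted p = 0.083 by edgeR), and it was 0.97 without that pool (adjusted p = 0.00736) and 0.75 by DESeq2 (adjusted p = 0.0231). *Mmp16* and the GPI-anchored *Mmp17* and *Mmp25* had log2 fold changes of -0.16, -0.25 and 0.38, none past the threshold.

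*Mmp11*, a stromelysin that is activated by furin before secretion, had 85.6, 124 and 137 CPM at the lowest, median and highest control pool and 84.8, 106 and 115 CPM in the cKO. The groups overlapped (log2 fold change -0.22, SE 0.11, adjusted p = 0.227 by edgeR). *Mmp23*, a membrane-linked MMP known from reproductive tissues, had 13.8, 19.8 and 22.1 CPM in control and 18.4, 20.5 and 26.3 CPM in cKO pools. Its log2 fold change was 0.13 (SE 0.12, adjusted p = 0.483 by edgeR). *Mmp19* and *Mmp28* also missed the threshold, at 0.22 and -0.03 (*Mmp28* 0.24 without the libraries with high *Xist*), and *Mmp21* and *Mmp24*, which were not tested, did not exceed 0.271 and 0.434 CPM in any library.

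*Adamts9* encodes a protease that cleaves versican and aggrecan (Entrez Gene 101401, mm10 chr6:92772699-92901441, minus strand). Control pools had 106, 132 and 152 CPM at the lowest, median and highest, and cKO pools had 161, 180.4 and 197 CPM. Every cKO pool lay above every control pool, and the highest control was again replicate 1. Means were 130.4 ± 15.2 CPM and 180.0 ± 15.2 CPM (SD, n = 6 pools each). The log2 fold change was 0.46 (SE 0.08, adjusted p = 0.00406 by edgeR), which was past the threshold in all 18 alternative fits with values from 0.42 to 0.62. In the fit without the 4 libraries with high *Xist* it was 0.62 (adjusted p = 0.00257). Macrophage markers moved in the same direction, with *Csf1r*, *Cx3cr1* and *C1qb* higher among 8, sums of 48.2 to 77.4 CPM in control and 73.5 to 90.2 CPM in cKO pools, and no marker at a mean of 0. Of 6 mesonephric and tubular markers, *Pax8* and *Lhx1* were higher, with sums of 70.0 to 115 CPM and 74.6 to 115 CPM. The part of these cells in the change of *Adamts9* was not tested.

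The other proteoglycan-cleaving ADAMTS did not pass the threshold. *Adamts1*, the most abundant of them per length of all exons, had 57.3, 69.9 and 76.3 CPM in control pools and 69.1, 72.1 and 80.2 CPM in cKO pools (log2 fold change 0.07, SE 0.07, adjusted p = 0.551 by edgeR). The ratio of *Adamts9* to *Adamts1* CPM was 1.73 to 2.01 in control and 2.27 to 2.85 in cKO pools, without overlap. *Adamts20* was at 12.1 CPM or more in every control pool and at 8.28 to 14.1 CPM in the cKO, with 5 of 6 cKO pools under every control. Its log2 fold change was -0.36 (SE 0.12, adjusted p = 0.0748 by edgeR), and DESeq2 (adjusted p = 0.0284) and limma-voom (adjusted p = 0.0358) put it past the threshold. It was called in 4 of 18 alternatives and was -0.21 (adjusted p = 0.240) without the libraries with high *Xist*. *Adamts5* (-0.39), *Adamts4* (-0.10), *Adamts15* (0.01) and *Adamts8* (0.31) had adjusted p by edgeR of at least 0.0918, and *Adamts4* was 0.10 and *Adamts5* -0.19 without those libraries. *Adamts8* and *Adamts15* lie head to head on chromosome 9, and *Adamts1* and *Adamts5* lie side by side on chromosome 16.

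The procollagen N-proteinases *Adamts2*, *Adamts3* and *Adamts14*, which remove the amino-terminal propeptides of fibrillar collagens, all had negative values, and none passed the threshold. *Adamts2* was the most abundant per length, at 14.1 CPM per kb in control pools against 1.94 for *Adamts14* and 1.64 for *Adamts3*. It had 99.9, 133 and 153 CPM at the lowest, median and highest control pool and 62.4, 98.3 and 125 CPM in the cKO. Only 3 of 6 cKO pools lay under every control. Its log2 fold change was -0.48 (SE 0.15, adjusted p = 0.0619 by edgeR), which was called in 4 of 18 alternatives, DESeq2 among them (adjusted p = 0.0217), and was -0.25 (adjusted p = 0.212) without the 4 libraries with high *Xist*. *Adamts14* and *Adamts3* differed by -0.29 and -0.17 (adjusted p = 0.173 and 0.372 by edgeR).

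Among the remaining ADAMTS, *Adamts7*, a protease of cartilage oligomeric matrix protein, was the most abundant per length of all exons. It had 62.8, 92.3 and 104 CPM in control and 57.9, 82.0 and 94.9 CPM in cKO pools at the lowest, median and highest (log2 fold change -0.17, SE 0.14, adjusted p = 0.445 by edgeR). Without the 4 libraries with high *Xist* the value was 0.0164, so no direction is given. *Adamts19* had 38.9, 43.6 and 92.3 CPM in control and 23.3, 28.8 and 54.0 CPM in cKO pools. Both maxima came from libraries with high *Xist*, control replicate 1 and cKO replicate 3. Its log2 fold change was -0.66 (SE 0.24, adjusted p = 0.104 by edgeR), and it was -0.59 (SE 0.12, adjusted p = 0.0164) in the fit without such libraries. Without control replicate 1 alone it was -0.40 (adjusted p = 0.119), and without cKO replicate 3 alone -0.87 (adjusted p = 0.028). *Adamts13*, the von Willebrand factor protease, had 5.79 CPM in control replicate 1 and 0.0661 to 0.435 CPM elsewhere. Of its 277 counts, 214 came from that 1 library. The other 6 (*Adamts6*, *Adamts10*, *Adamts12*, *Adamts16*, *Adamts17* and *Adamts18*) had log2 fold changes from -0.22 to 0.28, none past the threshold, and *Adamts6* was 0.03 in place of -0.07 without the libraries with high *Xist*.

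**Figure D3:**
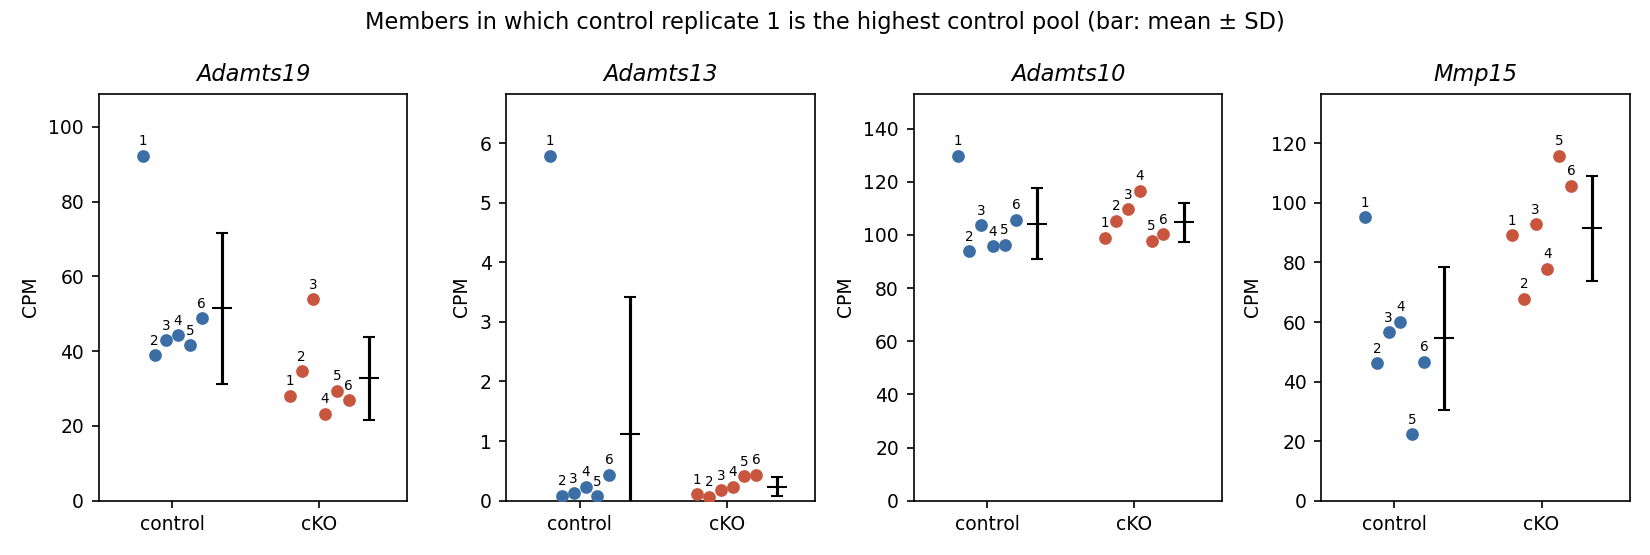
CPM of 4 members in each pool, with replicate numbers and the mean ± SD (n = 6 pools). Control replicate 1 is the highest control in all 4, at 92.3 CPM for Adamts19, 5.79 for Adamts13, 129.8 for Adamts10 and 95.2 for Mmp15, and in Mmp15 it lies within the cKO range.

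*Adamtsl3*, a matrix protein without protease activity, was a low-level gene with a higher level in cKO testes (Entrez Gene 269959, mm10 chr7:82335694-82614448, plus strand). Control pools had 1.84, 2.22 and 4.19 CPM at the lowest, median and highest, and cKO pools had 3.43, 4.79 and 5.84 CPM. The groups overlapped through control replicates 1 and 6 (4.19 and 3.61 CPM) and cKO replicate 1 (3.43 CPM), and 5 of 6 cKO pools lay over every control. The log2 fold change was 0.81 (SE 0.22, adjusted p = 0.0346 by edgeR). The call was lost in 10 of 18 alternative fits, among them 9 of the 12 that left out 1 library, with log2 fold changes from 0.71 to 0.84 and adjusted p up to 0.0809 where it was lost. The lowest adjusted p among fits of the same test came without control replicate 1, with a log2 fold change of 1.03 (adjusted p = 0.00294). *Adamtsl1*, the most abundant of these proteins per length, had 22.4, 23.3 and 32.5 CPM in control and 11.4, 18.9 and 22.4 CPM in cKO pools, where the highest cKO and the lowest control pool differed by less than rounding. Its log2 fold change was -0.48 (SE 0.15, adjusted p = 0.0662 by edgeR; DESeq2 adjusted p = 0.0232). It was called in 2 of 18 alternatives and was -0.30 (adjusted p = 0.189) without the libraries with high *Xist*. *Adamtsl2*, *Adamtsl4* and *Adamtsl5* differed by -0.28, 0.11 and 0.18 and were not past the threshold, and *Adamtsl4* was -0.03 without those libraries.

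Promoters of called members are shown where one was at hand, because these are the sequences upstream of the genes that changed. Those of *Adamts9* and *Adamtsl3* come from RefSeq (GRCm38.p6), and that of *Mmp2* was not in the set used. The 250 bases before the start are printed in the direction of transcription, at chr6:92943535-92943784 (minus strand) and chr7:82335444-82335693 (plus strand). The start of *Adamts9* lies 42093 bases upstream of the interval that was counted and 42 bases from the nearest GENCODE M21 start. Capitals mark matches to 4 motifs searched on both strands.
Adamts9: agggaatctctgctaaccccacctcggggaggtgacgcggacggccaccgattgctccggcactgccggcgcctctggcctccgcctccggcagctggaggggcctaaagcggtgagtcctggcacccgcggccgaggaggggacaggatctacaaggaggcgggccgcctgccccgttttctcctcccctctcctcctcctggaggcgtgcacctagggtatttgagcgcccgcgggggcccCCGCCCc
Adamtsl3: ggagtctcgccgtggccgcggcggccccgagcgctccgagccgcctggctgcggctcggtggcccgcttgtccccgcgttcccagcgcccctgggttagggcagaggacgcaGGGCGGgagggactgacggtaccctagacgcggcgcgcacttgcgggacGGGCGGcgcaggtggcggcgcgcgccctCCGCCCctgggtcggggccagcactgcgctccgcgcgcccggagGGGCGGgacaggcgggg
The capitals are GC boxes (GGGCGG on either strand), of which *Adamts9* held 1 and *Adamtsl3* 4. A GC box was present in 32.7% of all 32851 promoters of that length and in 20 of 39 promoters (51.3%) of 36 members. These shares were not matched for base content. The median GC content was 52.4% in all promoters and 62% in member promoters, and it was 71.2% in the *Adamts9* and 80% in the *Adamtsl3* window. Neither promoter held the nuclear receptor site AGGTCA, which 14% of all promoters and 12.8% of the member promoters held, nor the AP-1 site TGANTCA or the TATA box (searched as TATAAA). No match says only that these letters are absent from this window.

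None of the 4 TIMPs passed the threshold. *Timp3*, which is bound to the matrix and also inhibits ADAMTS proteases, had between 239 and 340.0 CPM in control and between 267 and 326 CPM in cKO pools (log2 fold change 0.09, adjusted p = 0.518 by edgeR). *Timp1*, on the X chromosome, had between 25.1 and 37.7 CPM in control and between 27.5 and 29.8 CPM in cKO pools (-0.14, adjusted p = 0.371 by edgeR). *Timp4* did not exceed 0.459 CPM in any library. *Timp1*, *Timp3* and *Timp4* lie inside the intervals of the synapsin genes *Syn1*, *Syn3* and *Syn2* on the opposite strand, and the counts were made by strand.

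Levels of different genes are ordered here as CPM per kb of exon. In control testes *Mmp2* led with 120.5 ± 7.45 CPM per kb (SD, n = 6 pools), and its lowest pool at 106 lay above the highest pool of any other member. *Mmp11* (42.5), *Mmp14* (41.3), *Timp2* (40.4), *Timp1* (35.3) and *Timp3* (34.8) followed with overlapping ranges. *Adamts2* at 14.1 and *Adamts7* at 14.0 CPM per kb were the first of the ADAMTS proteases, and their ranges overlapped with those of *Adamts1*, *Adamts10* and *Adamts16*. *Adamts9* stood at 8.66 ± 1.01 in control and 12.0 ± 1.01 CPM per kb in cKO testes, and *Adamtsl3* at 0.346 ± 0.127 and 0.606 ± 0.107. The counted interval of *Adamts9* leaves out its start, which the exon length includes, so its level per length may be too low. Divided by the longest transcript in place of all exons, *Mmp2* was still first at 132 CPM per kb, but the order below it changed. *Mmp14* was then second at 76.0 CPM per kb, before *Mmp11*. *Timp3* followed at 60.1, *Adamts10* at 25.3 was the first of the ADAMTS proteases before *Adamts2* (18.1) and *Adamts7* (16.4), and *Adamts9* at 16.3 lay above *Adamts1* at 14.2 CPM per kb.

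**Figure D4:**
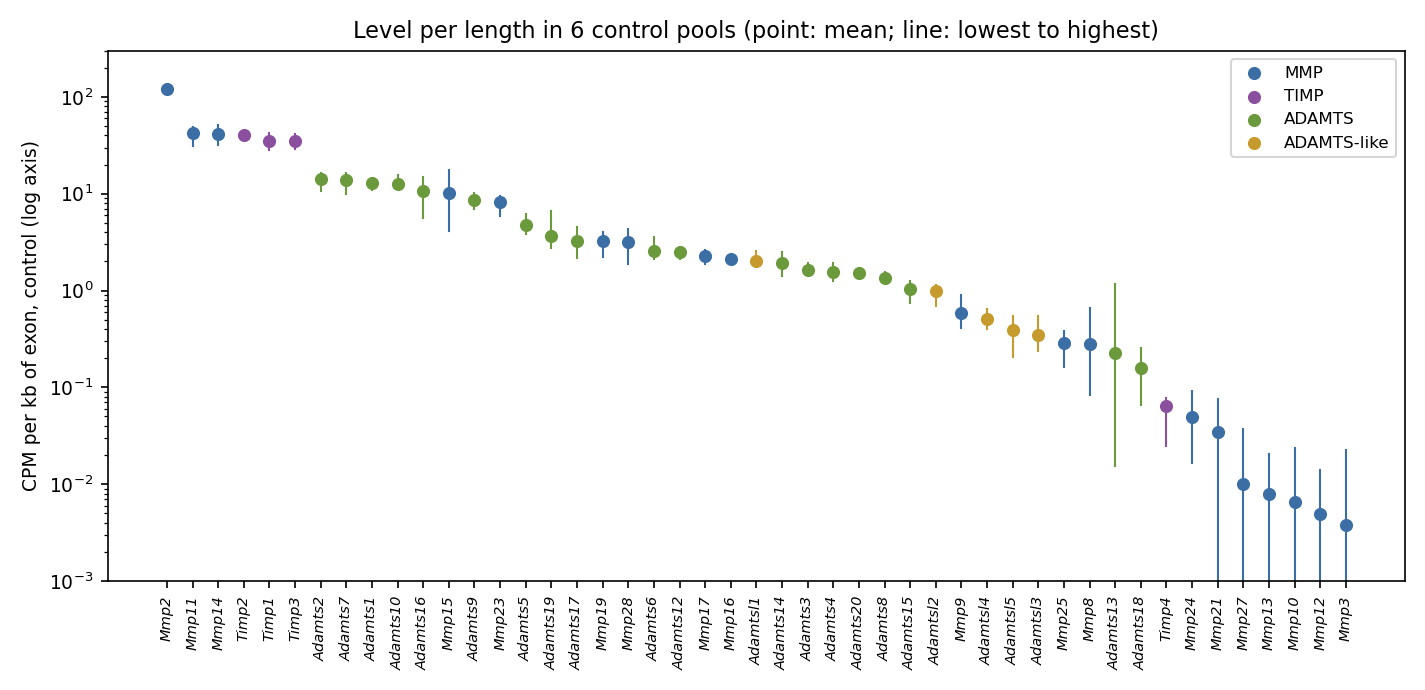
CPM per kb of exon of the 47 members with a count in a control pool, on a log axis, as the mean of 6 control pools with a line from the lowest to the highest pool; lines that reach the lower edge include pools at 0. Mmp2 leads at 120.5, a group of 2 MMPs and 3 TIMPs follows between 34.8 and 42.5, and 9 of the 10 MMPs of the chromosome 9 cluster, all but Mmp8, hold the lowest levels, those at 0 in every control pool not drawn.

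Summed over the 23 MMPs, the level was 792 to 966 CPM in control and 748 to 911 CPM in cKO pools, a ratio of means of 0.923. *Mmp2* made up 45.1% ± 5.35 of this sum in control and 34.2% ± 2.08 in cKO pools (SD, n = 6 pools each), and all 6 cKO values lay under every control value. Without *Mmp2* the sum was 367 to 609 CPM in control and 505 to 579 CPM in cKO pools, and the direction of the means turned, with a ratio of 1.10. TIMP sums were 417 to 537 and 414 to 514 CPM (ratio 1.01), and ADAMTS sums were 675 to 988 and 685 to 890.4 CPM (ratio 0.969). ADAMTS-like sums were 36.6 to 47.1 CPM in control and 25.8 to 40.0 CPM in cKO pools (ratio 0.835), with 4 of 6 cKO pools under every control. The ratio of TIMP to MMP sums was 0.522 ± 0.018 in control and 0.570 ± 0.019 in cKO pools, with 4 of 6 cKO pools over every control. Without *Mmp2* in the MMP sum this ratio also turned, with means of 0.957 in control and 0.866 in cKO pools and 4 of 6 cKO pools under every control. These sums are descriptions with no test.

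**Figure D5:**
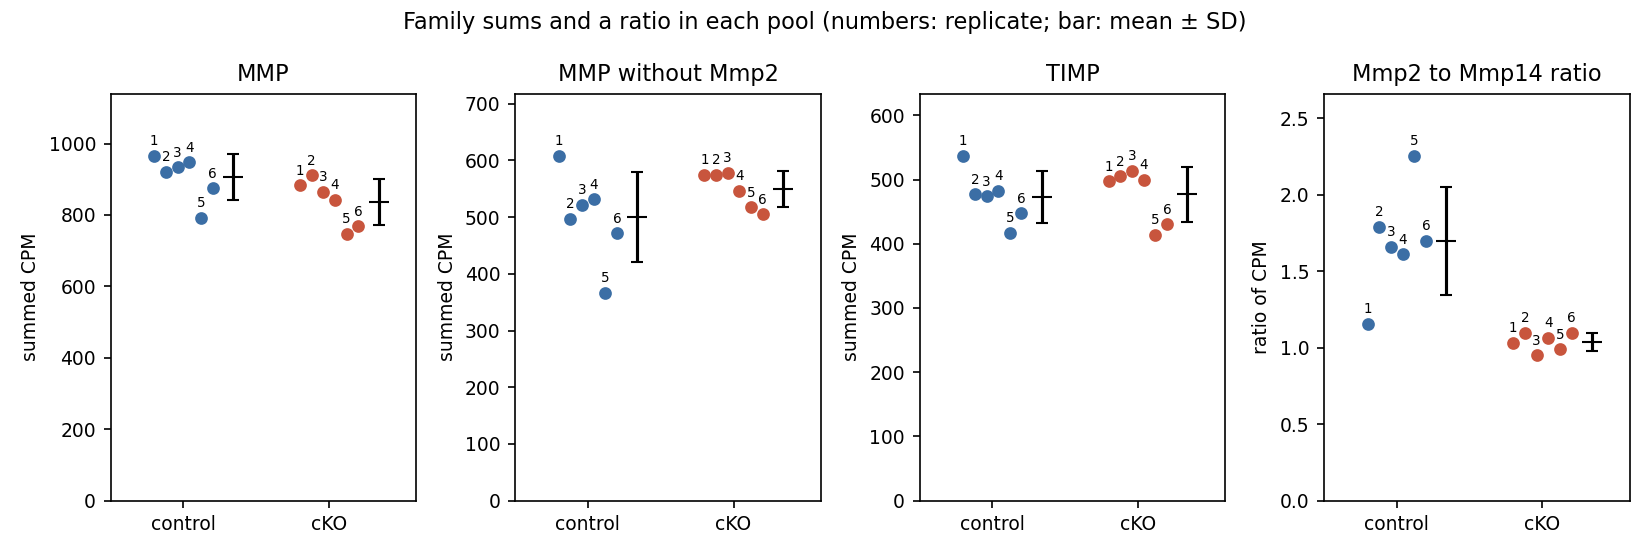
Summed CPM of the MMPs, of the MMPs without Mmp2 and of the TIMPs, and the ratio of Mmp2 to Mmp14 CPM, in each pool with replicate numbers and the mean ± SD (n = 6 pools). The sums overlap between groups, whereas the ratio is 1.16 or more in every control and 1.10 or less in every cKO pool.

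The 10 MMP genes Mmp1a, Mmp1b, Mmp3, Mmp7, Mmp8, Mmp10, Mmp12, Mmp13, Mmp20 and Mmp27 form a cluster on chromosome 9 (mm10 chr9:7272514-7699585) that holds collagenases, stromelysins, the metalloelastase, matrilysin and the enamel protease *Mmp20*. None of the 10 passed the filter on low counts. Together they had 183 of the 711069 counts of all members over the 12 libraries (0.0257%), and *Mmp8* alone had 137 of the 183. *Mmp8*, the neutrophil collagenase, had 0.201, 0.523 and 1.59 CPM at the lowest, median and highest control pool and 0, 0.270 and 0.445 CPM in the cKO, so the groups overlapped. The summed neutrophil and mast cell markers ranged from 14.7 to 76.1 CPM in control and from 8.46 to 58.1 CPM in cKO pools. *Mmp13*, collagenase 3, had 16 counts and *Mmp12*, the macrophage elastase, had 14. *Mmp1a*, *Mmp1b*, *Mmp7* and *Mmp20* had 0 counts in all 320037127, which allows up to 0.00937 CPM each (3 counts over all libraries, counting error only). Reads of close copies such as *Mmp1a* and *Mmp1b* may be shared and lost in counting.

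Most promoters of this cluster held sequence features that the choice by gene name did not use. RefSeq (GRCm38.p6) held 12 promoters for the 10 genes. Promoters were at hand for 36 of the 51 members, and members without one, such as *Mmp2* and *Mmp9*, were not searched. In the 100 bases before the start, 7 of 12 (58.3%) held both an AP-1 site (TGANTCA) and a TATA box (TATAAA), against 0 of 27 promoters of the other members and 0.234% of all 32851 promoters. An AP-1 site was present in 8 of the 12 (66.7%), in none of the 27 and in 2.73% of all. A TATA box was present in 7 of the 12 (58.3%), in 3 of the 27 (11.1%) and in 5.56% of all. The promoters of *Mmp8* and *Mmp27*, among others, held neither motif. Close copies such as *Mmp1a* and *Mmp1b* are not separate observations in these shares. The 7 promoters with both are printed below 5′ to 3′ in the direction of transcription, ending at the base before the start, with the matches in capitals.
Mmp13: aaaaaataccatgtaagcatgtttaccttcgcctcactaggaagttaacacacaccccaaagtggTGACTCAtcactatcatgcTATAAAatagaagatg
Mmp1b: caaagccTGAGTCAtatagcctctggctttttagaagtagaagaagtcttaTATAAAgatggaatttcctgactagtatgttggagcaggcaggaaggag
Mmp3: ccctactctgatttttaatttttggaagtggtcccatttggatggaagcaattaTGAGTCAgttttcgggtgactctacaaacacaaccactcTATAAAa
Mmp1a: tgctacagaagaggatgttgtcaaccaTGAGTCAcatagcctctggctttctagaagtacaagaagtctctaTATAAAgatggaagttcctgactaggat
Mmp10: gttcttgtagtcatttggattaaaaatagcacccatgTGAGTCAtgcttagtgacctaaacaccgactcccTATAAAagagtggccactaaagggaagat
Mmp20: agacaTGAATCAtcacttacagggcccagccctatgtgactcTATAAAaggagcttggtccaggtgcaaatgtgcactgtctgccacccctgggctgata
Mmp7: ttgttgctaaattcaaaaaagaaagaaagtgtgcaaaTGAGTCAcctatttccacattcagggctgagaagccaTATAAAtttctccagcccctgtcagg
In the same order they lie at chr9:7272414-7272513 (plus), chr9:7388027-7388126 (minus), chr9:7445722-7445821 (plus), chr9:7464041-7464140 (plus), chr9:7502242-7502341 (plus), chr9:7628131-7628230 (plus), chr9:7691990-7692089 (plus). In all 7 the AP-1 site lies before the TATA box, from position -95 (*Mmp20*) to -35 (*Mmp13*), where -1 is the base before the start. The RefSeq start of *Mmp1b* lies 21 bases and that of *Mmp10* 10 bases from the nearest GENCODE M21 start, and the other 5 coincide. The motifs were compared after earlier results were known, and a match is a description of the letters and not of binding.

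Genes that act with these families, outside the naming rule, were taken from lists of activators and inhibitors, other matrix proteases and substrates. The test called 8 of 57 as lower and 2 as higher in the cKO, against 4.85% lower and 3.28% higher among all genes tested. Among 19 activators, clearance factors and inhibitors, 5 were lower and none higher. *Plau* and *Plat*, the plasminogen activators, fell by 0.65 and 0.35 on the log2 scale (adjusted p = 0.00419 and 0.00855 by edgeR) with no overlap between groups. *Plau* had 17.6 to 25.9 CPM in control and 10.8 to 15.5 CPM in cKO pools, and *Plat* had 58.6 to 76.6 CPM and 49.8 to 57.0 CPM. *Thsd4*, an ADAMTS-like relative that binds fibrillin, also had no overlap, with 37.0 to 45.7 CPM in control and 26.3 to 33.6 CPM in cKO pools (log2 fold change -0.36, adjusted p = 0.0102 by edgeR). *Spock1* and *Spock2*, proteoglycans known to modulate MMPs, had log2 fold changes of -0.68 and -0.80 (adjusted p = 0.0302 and 0.0382 by edgeR).

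Among 19 other matrix proteases, 2 were lower and 2 higher. *Adam12*, a membrane-anchored metalloprotease, rose from 38.5 ± 6.99 CPM to 81.5 ± 15.8 CPM (SD, n = 6 pools per genotype; log2 fold change 1.08, SE 0.14, adjusted p = 0.000481 by edgeR). *Tll1*, a tolloid-like procollagen C-proteinase, was 3.42 ± 0.42 CPM and 7.22 ± 1.68 CPM (log2 fold change 1.09, SE 0.16, adjusted p = 0.00091 by edgeR). Both were higher in every cKO pool than in every control pool. The serine proteases *Fap* (means 4.54 and 2.27 CPM, adjusted p = 0.032 by edgeR) and *Dpp4* (means 11.7 and 5.59 CPM, adjusted p = 0.0174 by edgeR) were lower. Of 19 substrates only *Col3a1*, a fibrillar collagen, passed the threshold, with 3000 ± 252 CPM falling to 2208 ± 454 CPM (log2 fold change -0.44, SE 0.12, adjusted p = 0.0358 by edgeR). *Vcan*, the versican gene, had a log2 fold change of -0.05 (adjusted p = 0.828 by edgeR). Without the 4 libraries with high *Xist*, 3 pathway genes were lower and 4 higher, against 3.39% and 3.68% of all genes. *Plau* (-0.78), *Plat* (-0.40), *Fap* (-1.46), *Adam12* (1.30) and *Tll1* (1.23) were called there too. *Thsd4* (-0.30), *Spock1* (-0.53), *Spock2* (-0.50), *Dpp4* (-1.09) and *Col3a1* (-0.27) were not, with adjusted p by edgeR from 0.0554 to 0.185, and *Furin* and *Pcsk5* were called in addition.

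The median coefficient of variation between control pools was 16.8% over the members tested and 16.0% over all genes tested. Between cKO pools it was 15.6% and 10.6%. These medians are descriptions with no test, and the genes were not matched for level.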

How the data were processed

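Per the labels and the study's methods, the authors prepared stranded libraries from polyadenylated RNA of 3 pooled E14.5 testes. They trimmed read pairs (Trim Galore 0.6.7), aligned them to mm10 (STAR 2.5), counted them by strand on RefSeq Curated gene models (featureCounts, Subread 1.5.0-p1) and deposited raw counts for 24470 genes without normalization. For the 12 libraries, edgeR 4.0.16 (R 4.3.3) was used: TMM scaling, filterByExpr (minimum count 10, minimum total 15), glmQLFit and glmQLFTest on genotype, and Benjamini-Hochberg adjustment over 15572 genes at 0.05. The standard error is the size of the log2 fold change divided by the square root of F. CPM use TMM-scaled totals. Exon lengths come from GENCODE M21 on the same genome build, and its exons can differ from the RefSeq models that were counted. Where nothing ties the pools to separate litters, p-values measure the spread between these pools. The scripts were tested on simulated data.

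Members and lists were chosen with earlier results of these data known. The lowest, median and highest library of each genotype were given for called members and for the most abundant member of each role per length (the range alone for some), and other members by value or count. *Adamts13*, *Adamts19*, *Adamts20*, *Mmp15* and *Timp3*, and the ratios, were picked with their values in view. Alternatives were RLE factors, no filter, DESeq2 1.42.0, limma-voom (limma 3.58.1), a replicate block, each library left out in turn, and a fit on the 8 libraries with *Xist* at or under 100 CPM. Motif searches in proteins were not done here, and promoters came from RefSeq. The precision of members with few counts is limited by depth: 3 counts correspond to 0.0502 to 0.434 CPM in a single library.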

Additional observations from a re-analysis of the deposited data

Results flagged for a closer look

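In 80 groups of 6 pools (40 members with at least 10 counts in a library, in each genotype), 8 had a highest or lowest pool far from the others, and chance gives about 1 such group in 20. Control replicate 1 was this pool in 4 of them. It had 92.3 CPM of *Adamts19* against 38.9 to 48.9 CPM in the other controls, 5.79 CPM of *Adamts13* against 0.0765 to 0.434 CPM, 129.8 CPM of *Adamts10* against 93.8 to 106 CPM, and 358 CPM of *Mmp2* against 403 to 425 CPM. The same library had 891 CPM of *Xist*, against at least 5.15 CPM and at most 6.40 CPM in the other controls, and the part of this in these values was not tested. In cKO replicate 3, which had 304 CPM of *Xist*, *Adamts19* was at 54.0 CPM against 23.3 to 34.6 CPM in the other cKO pools. *Mmp28* was at 17.1 CPM in cKO replicate 2 against at most 12.7 CPM in the others. *Mmp23* was at 13.8 CPM in control replicate 5 against 19.0 to 22.1 CPM. *Timp4* was at 0.145 CPM in control replicate 6, the shallowest library, where this value is under the 0.434 CPM of 3 counts.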

How the results depend on the processing

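*Mmp2* and *Adamts9* passed the threshold in all 18 alternative fits. The count of members lower in cKO testes (1) became 5 with DESeq2 (*Mmp2*, *Adamts2*, *Adamts19*, *Adamts20* and *Adamtsl1*), 2 with limma-voom, 2 with the replicate block and 2 without the libraries with high *Xist*. The count higher (2) became 1 with the replicate block and 3 with DESeq2, which added *Mmp15*. Over all genes with an adjusted p, 6.27% were lower and 5.28% higher by DESeq2, 4.59% and 3.42% by limma-voom, and 3.46% and 2.52% with the replicate block. Without each library in turn the counts ranged from 1 to 3 lower and from 1 to 4 higher, with the most higher calls without control replicate 1 (*Adamts8* and *Mmp15* in addition). In that fit calls over all genes rose as well, from 756 to 1635 lower and from 510 to 1471 higher, or 10.5% and 9.44% of 15579 genes. Pathway genes ranged from 4 to 10 lower and from 2 to 7 higher when each library was left out. There were 4 lower without control replicate 4, control replicate 6 or cKO replicate 4, and 7 higher without control replicate 1. Over all genes tested, the fits that left out 1 library called from 3.19% to 10.5% lower and from 2.05% to 9.44% higher. The lowest shares came without cKO replicate 4 and the highest without control replicate 1. Without the libraries with high *Xist*, 3 were lower and 4 higher, against 3.39% and 3.68% of all genes. In that setting 6 members changed sign with none called, namely *Adamts7* (0.0164), *Timp2* (0.0085), *Adamts4* (0.10), *Adamts6* (0.03), *Mmp28* (0.24) and *Adamtsl4* (-0.03). Over all alternatives 9 members did, also with none called, and the other 3 were *Adamts10*, *Adamts15* and *Adamts17*. The causes were not tested. As 5 control and 3 cKO libraries remained, 15586 genes were tested there and 7.08% were called. With the replicate block, *Adamts2* was called (-0.51, adjusted p = 0.0255) and *Adamtsl3* was not (0.84, adjusted p = 0.0695). Deviations of same-numbered libraries correlated from -0.33 to 0.24, without a common sign, which cannot exclude that some pools were paired. The main fit used no pairing. RLE factors and no filter left the same 3 members called. *Adamts2* and *Adamts20* were called in 4 of 18 alternatives each, *Adamts19* in 3 and *Adamtsl1* and *Mmp15* in 2 each. Dividing by the longest transcript moved the control level of *Mmp2* to 132, *Mmp14* to 76.0, *Mmp11* to 51.6, *Adamts2* to 18.1, *Mmp23* to 13.5 and *Adamtsl1* to 3.32 CPM per kb. Family sums over plain library totals moved by less than the spread between pools.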
